A study of Mus musculus with 15 samples.

Results

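Imprinted growth regulators were followed through the first 3 postnatal weeks of the mouse Purkinje cell (PC), the output neuron of the cerebellar cortex. The members were the rows of the 15 count files whose Ensembl gene ID carries one of 10 symbols in GENCODE M21: Igf2, Dlk1, Peg3, Plagl1, H19, Meg3, Rian, Mirg, Cdkn1c and Grb10. All 10 were found among 38561 gene IDs, and 9 of them passed the filter on low counts that left 14293 genes for testing; Dlk1 did not. PCs were laser microdissected from the cerebellum of mice of the strain labelled C56/BL6 (given as male C57/BL6 in the study's methods), for which no treatment is given. Animals were taken on the day of birth (P0) and on postnatal days 4 (P4), 8 (P8), 14 (P14) and 21 (P21), each age with 3 biological replicates. Single cell bodies, 1000 a sample, were collected from P4 on, whereas clusters of PCs were cut out at P0, so the manner of capture and the age cannot be told apart at P0.

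An imprinted gene is transcribed mainly from the chromosome of one parent, and imprinted genes lie in clusters governed by differentially methylated control regions. As a family they are known for control of prenatal and early postnatal growth: paternally expressed members such as Igf2 tend to promote it, and maternally expressed members such as Cdkn1c and H19 tend to restrain it. Counts per gene do not separate the parental alleles, so imprinting itself was not measured here.

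The members occupy 5 places in the genome (GRCm38). On chromosome 12, Dlk1 (chr12:109452823-109463336), Meg3 (chr12:109541001-109571726), Rian (chr12:109603940-109661716) and Mirg (chr12:109729764-109749460) lie in this order on the plus strand, with gaps of 77.7, 32.2 and 68.0 kb between neighbours. On the minus strand of chromosome 7, H19 (chr7:142575529-142578143) lies 72.6 kb from Igf2 (chr7:142650766-142666816), and Cdkn1c (chr7:143458339-143461050) lies a further 791.5 kb away. Peg3 (chr7:6703892-6730431) is at the other end of the same chromosome. Grb10 (chr11:11930508-12038683) and Plagl1 (chr10:13060504-13131694) stand alone.

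Of the 10 members, 5 contain microRNAs within their GENCODE bounds: 39 mature microRNAs by RefSeq, of which 26 lie in Mirg, 6 in Rian, 3 in Meg3 and 2 each in H19 and Igf2. One or 2 per host are shown to make clear what each transcript carries, 5′ to 3′ with the seed (bases 2 to 8, which pair with a target) in capitals. The mature microRNAs themselves were not measured in these libraries.
H19 exon, miR-675-5p: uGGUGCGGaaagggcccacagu
H19 exon, miR-675-3p: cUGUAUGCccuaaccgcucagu
Igf2 intron, miR-483-5p: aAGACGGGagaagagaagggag
Meg3 exon, miR-770-5p: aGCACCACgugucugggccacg
Rian intron, miR-370-3p: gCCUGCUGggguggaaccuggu
Mirg exon, miR-410-3p: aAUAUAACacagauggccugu
Mirg intron, miR-453: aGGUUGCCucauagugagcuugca
Mirg intron, miR-496a-5p: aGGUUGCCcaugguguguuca

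The 39 microRNAs held 38 different seeds. The last pair above, both from Mirg introns, shared the only repeated one, GGUUGCC.

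Among the start sites, those of Meg3 and Peg3 are shown because both genes changed over the time points (below). The 250 bases before the start of Meg3 (RefSeq, GRCm38.p6, plus strand, chr12:109540746-109540995) held 10 CpG dinucleotides. Capitals mark a CCAAT box, a cAMP response element (TGACGTCA) and the TATA box letters TATAAA, which match on both strands and overlap.
Meg3 upstream: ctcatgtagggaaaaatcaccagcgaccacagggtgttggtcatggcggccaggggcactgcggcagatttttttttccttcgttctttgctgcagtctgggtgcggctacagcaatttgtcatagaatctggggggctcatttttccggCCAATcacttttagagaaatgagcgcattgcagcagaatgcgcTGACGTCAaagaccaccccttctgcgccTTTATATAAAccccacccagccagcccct

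Peg3 and its neighbour Usp29, a ubiquitin-specific protease gene, run in opposite directions from starts 146 bases apart. Within that gap, 96 bases (chr7:6730463-6730558, plus strand) held 3 CpG dinucleotides and 2 CCAAT boxes, in capitals.
Peg3-Usp29 gap: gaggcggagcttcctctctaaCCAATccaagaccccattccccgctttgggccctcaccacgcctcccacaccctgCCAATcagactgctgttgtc

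Searched on both strands of windows from 250 bases before to 50 after a start, CCAAT was in 4 of the 13 windows of members (8 genes, with 4 windows for Igf2 and none for Cdkn1c or H19) and in 37.4% of all 32851 RefSeq windows. TATAAA was in 1 of 13 against 13.6%, and TGACGTCA in 2 of 13, those of Peg3 and Meg3, against 1.79%. These matches describe letters only.

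Depth was 3409371 to 7814951 counts on genes per sample, and 16.706 to 29.8% of HTSeq's tallies fell outside genes, with the highest shares at P0. All 6 PC markers, Calb1 and Pcp2 among them, rose with age, and their summed level went from 4549 to 6007 CPM (counts relative to the effective library size) at P0 to 36890 to 46640 at P21. Of 8 markers of Bergmann glia and astrocytes 3 rose and 2 fell, with a mean sum of 4765 CPM at P0, 9202 CPM at P8 and 3863 CPM at P21, and 5 of 5 oligodendrocyte markers rose, from a mean sum of 22.4 to 569.4 CPM. Markers of dividing cells (Mki67, Top2a, Cdk1 and Ccnb1) fell, 4 of 4, from a sum of 385.1 to 414.6 CPM at P0 to 0.3338 to 2.542 CPM at P21. Of 9 markers of meningeal fibroblasts and pericytes, 6 were tested and none was called with day, but the sum of the 9 was 299 CPM in P4 replicate 1 and 10.7 to 93.1 CPM in the other 14 samples. Of 5 granule cell markers 1 rose, their sum was 209.8 to 331.9 CPM at P0 and 242.5 to 434.1 CPM at P21, and Atoh1, the defining factor of the precursors, had no count in any sample while Cbln1 and Neurod1 had counts in all 15. In such bulk samples fewer cells of a type and less RNA per cell cannot be told apart.

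Over the 15 samples, 1 of the 9 tested members fell with postnatal day (Cdkn1c) and 1 rose (Peg3) by the edgeR quasi-likelihood test with Benjamini-Hochberg adjustment at 0.05. The background was 14.1% of all tested genes falling and 12.1% rising, so these counts are near those of genes at large. The median slope, in log2 units per day, was -0.0148 for the 9 members and -0.00767 for all genes tested. When the time point was a factor, so that any pattern could count, 3 members changed (Cdkn1c, Peg3 and Meg3), beside 19.3% of all genes. The remaining 6 (Igf2, H19, Grb10, Plagl1, Rian and Mirg) passed neither test.

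**Figure D1:**
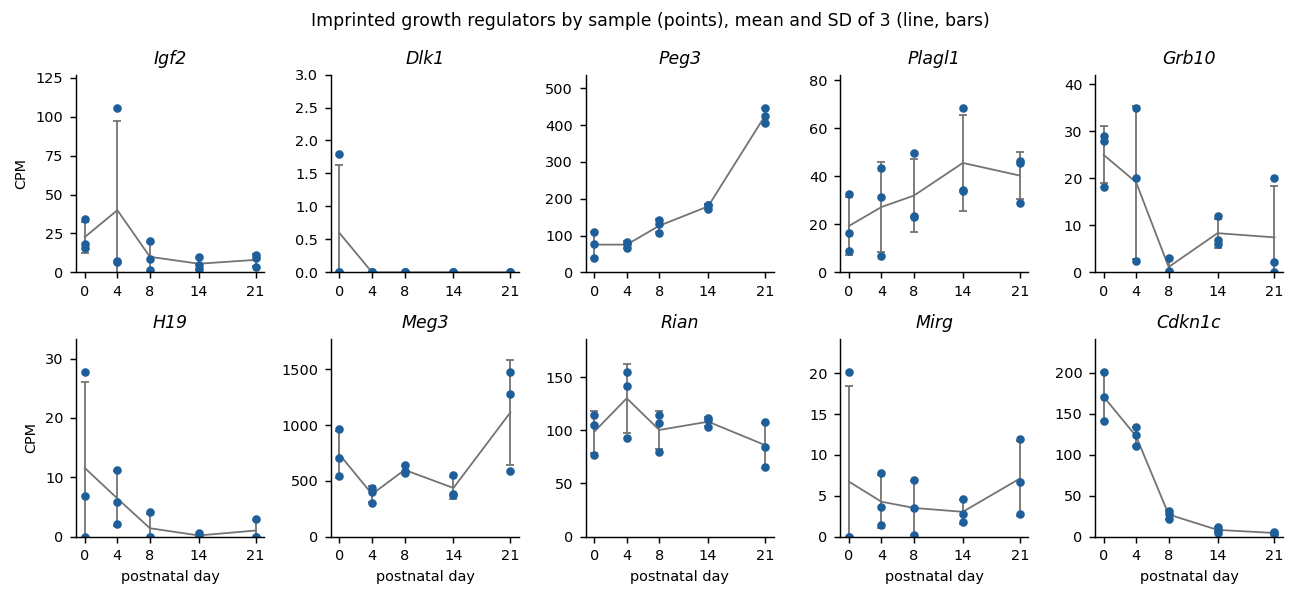
CPM of the 10 members (vertical axes, linear, a scale for each gene) against postnatal day; points are samples, the line joins the means of 3 samples and bars are ± SD. Cdkn1c descends from a mean of 170.5 CPM at P0 to 4.317 CPM at P21, Peg3 climbs from 75.49 to 426.2 CPM, and Igf2 has 1 sample far above the rest at P4.

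**Figure D2:**
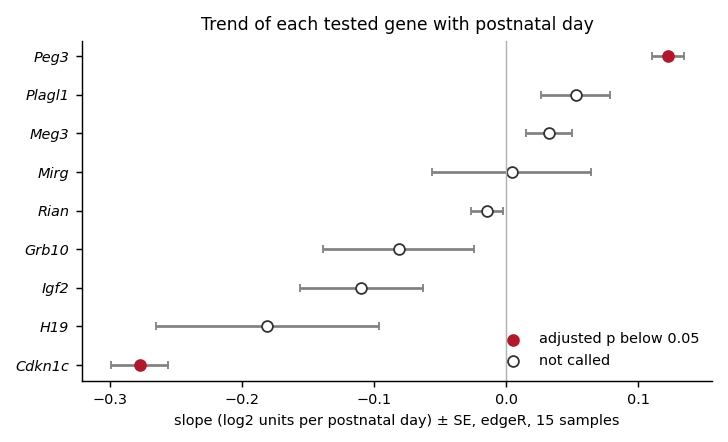
Slope in log2 units per postnatal day (horizontal axis) of the 9 tested members, with bars of ± SE from the edgeR fit to 15 samples; filled points have an adjusted p below 0.05. Cdkn1c (-0.28) and Peg3 (0.12) are filled, and the bars of H19, Mirg, Grb10 and Igf2 are the widest.

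Cdkn1c encodes p57Kip2, a maternally expressed inhibitor of cyclin-dependent kinases that takes cells out of the cell cycle. Its counts were 1045, 855 and 695 in the 3 P0 samples and 448, 955 and 776 at P4, then 139, 163 and 119 at P8. They were 61, 44 and 25 at P14 and 16, 14 and 29 at P21. Every P14 and P21 sample (2.965 to 11.23 CPM) lay below every P0 and P4 sample (109.9 to 201 CPM), a separation in that direction that 7.14% of tested genes had.

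The mean of Cdkn1c fell 39.5-fold, from 170.5 ± 30.06 CPM (SD, n = 3) at P0 to 4.317 ± 1.221 CPM (SD, n = 3) at P21. The slope was -0.28 log2 units per day (SE 0.02, adjusted p = 5.26e-08). Of the steps between neighbouring time points, the fall lay from P4 to P8, with a log2 change of -2.18 (SE 0.33, adjusted p = 0.00215), and from P8 to P14, at -1.72 (SE 0.33, adjusted p = 0.00919). The second of these calls was lost without P14 replicate 3 (log2 change -1.45, adjusted p = 0.0600). The changes from P0 to P4 (-0.48, adjusted p = 0.541) and from P14 to P21 (-0.93, adjusted p = 0.552) did not pass. No other member passed in any step, and the share of all genes called per step, in order of age, was 1.97%, 1.13%, 2.67% and 0.329%. From P0 to P4, where edgeR called no member, 1 member had an unadjusted p below 0.05 (14.9% of all genes did) and DESeq2 called 1. From P14 to P21, where edgeR again called none, 3 members had an unadjusted p below 0.05 (7.02% of all genes did) and DESeq2 called 2.

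Per length, as RPKM (counts divided by exon length and by the library's total), Cdkn1c was the highest member at P0 with a mean of 93.37 and at P4 with 62.79, and the fifth at P21 with 1.856. This order depends on the exon lengths used, 2039 bases for Cdkn1c and 18089 for Meg3, over all annotated exons. By CPM, without length, Meg3 was above Cdkn1c at P0 (736.7 against 170.5) and at P4 (380.1 against 122.1). The summed markers of dividing cells fell over the same days as Cdkn1c, with means of 404.6, 198.0, 64.94, 6.32 and 1.279 CPM. Their part in the result was not tested. Across the 15 samples the genes with the course most like that of Cdkn1c were Ftl1 (Pearson r = 0.982 of log2 CPM), a ferritin light chain, Hmgb2 (r = 0.982), a chromatin protein of immature and dividing cells, and Jpt1 (r = 0.976). The points share libraries and age.

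Of the 12 measured genes of G1 control and its inhibitors, 6 fell with day and 1 rose, beside 14.1% and 12.1% of all genes tested. The cyclin Ccnd2 had means of 158.5 CPM at P0 and 5.409 CPM at P21 (slope -0.27, adjusted p = 4.39e-06). Cdk6, a kinase that D-type cyclins activate, went from 25.13 to 0.9006 CPM (slope -0.24, adjusted p = 0.00949), and the S-phase kinase Cdk2 from 20.27 to 0.9419 CPM (slope -0.21, adjusted p = 0.0483). The value of Cdk2 lay close to the threshold, and 4 to 6 genes of the list fell with a sample left out. The gene that rose was Cdkn1b, which encodes p27Kip1 of the same inhibitor family as Cdkn1c. Cdkn1b had means of 25.87 ± 5.778 CPM (SD, n = 3) at P0 and 69.71 ± 21.45 CPM (SD, n = 3) at P21 (slope 0.07, adjusted p = 0.00786), the opposite direction to Cdkn1c. That call was lost without the P0 time point. Cdkn1a, the third member of that family, did not change by the test (slope 0.01, adjusted p = 0.737). The list's median slope was -0.07 against -0.01 over all genes tested.

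**Figure D3:**
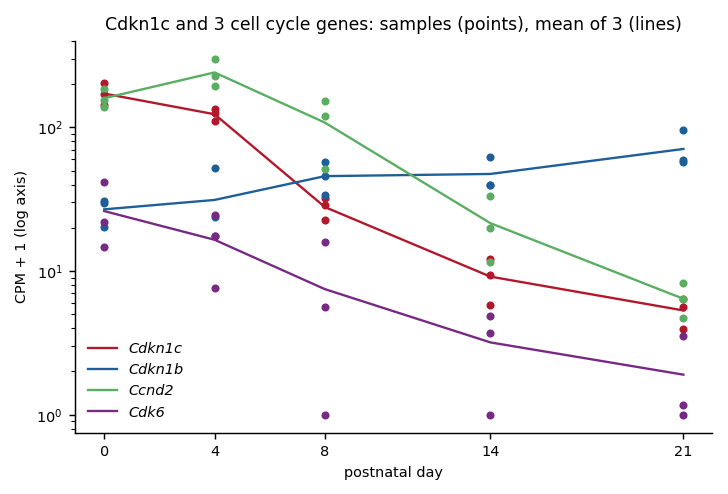
CPM + 1 on a log axis against postnatal day for Cdkn1c, its family member Cdkn1b, the cyclin Ccnd2 and the kinase Cdk6; points are samples and lines join the means of 3. The lines of Cdkn1c and Cdkn1b cross between P4 and P8, and at P8 their means were 26.88 and 44.76 CPM.

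Peg3 encodes a paternally expressed zinc finger protein linked to maternal care, body size and cell death pathways. It had 402, 196 and 544 counts in the P0 samples, 340, 503 and 451 at P4, and 706, 561 and 726 at P8. It reached 929, 960 and 955 counts at P14 and 1274, 2116 and 2530 at P21. The P14 and P21 samples (171.0 to 448.2 CPM) all lay above those of P0 and P4 (38.89 to 110.3 CPM), a separation that 8.24% of tested genes had in this direction.

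The mean of Peg3 rose 5.65-fold, from 75.49 ± 35.72 CPM (SD, n = 3) at P0 to 426.2 ± 21.54 CPM (SD, n = 3) at P21, with a slope of 0.12 log2 units per day (SE 0.01, adjusted p = 7.38e-07). From P14 to P21 alone the log2 change was 1.25 (SE 0.28), which missed the threshold (adjusted p = 0.0856) and passed without P0 replicate 2 (adjusted p = 0.00809) or P0 replicate 3 (adjusted p = 0.0273). Per length Peg3 moved from the third place among members at P0 (6.326 RPKM) to the second at P21 (27.91 RPKM). The summed oligodendrocyte markers also rose over these days, with means of 22.4, 75.04, 266.8, 424.9 and 569.4 CPM in order of age (Mag and Mobp at 0 in every P0 sample), as did those of PCs, and their part in the result was not tested. The courses most like Peg3 were those of Efr3a (r = 0.975), Setd7 (r = 0.968) and Gramd1b (r = 0.967).

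Usp29, which starts beside Peg3, had means of 9.501, 11.13, 0.9164, 0.7648 and 0.9608 CPM in order of age, with 0 to 108 counts per sample. Its slope of -0.19 did not pass the test (adjusted p = 0.0800). On one side of the gap lay a transcript that rose, and on the other one whose few counts lay mostly in the first 2 time points.

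Meg3 is a maternally expressed long non-coding RNA, abundant in neurons, whose transcription unit opens the run of non-coding genes that continues through Rian and Mirg. Meg3 had 3646, 4874 and 2673 counts at P0, 1236, 3081 and 2560 at P4, and 2833, 3342 and 3238 at P8. At P14 it had 2046, 2887 and 1971 counts, and at P21 4430, 6031 and 3654. On the CPM scale the samples ran from 542 to 967 at P0, 303 to 439 at P4 and 571 to 638 at P8. They ran from 377 to 553 at P14 and from 585 to 1480 at P21.

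The means of Meg3 were 736.7, 380.1, 598.1, 436.0 and 1114 CPM in order of age, lowest at P4 and P14, with an SD of 468.8 CPM at P21. The steps from P4 to P8 (log2 change 0.65, adjusted p = 0.388) and from P8 to P14 (-0.46, adjusted p = 0.579) did not pass. Meg3 changed over the time points (adjusted p = 0.00463 for any pattern) but had no trend with day (slope 0.03, SE 0.02, adjusted p = 0.187). Without the P0 time point the trend passed (slope 0.08, adjusted p = 0.00802). Neither the drop from P0 to P4 (log2 change -0.95, SE 0.29, adjusted p = 0.123) nor the increase from P14 to P21 (1.35, SE 0.29, adjusted p = 0.0799) passed, and both did without P21 replicate 3 (adjusted p = 0.0427 and 0.00504). By mean CPM Meg3 was the highest member at every age. From P8 on Meg3 was also the highest member per length, at 34.28 RPKM at P8 and 53.56 RPKM at P21, and at P21 it made up 56.3% of the members' summed RPKM. Its nearest genes by course were Snhg11 (r = 0.896), Pnisr (r = 0.83) and the processed pseudogene Gm6851 (r = 0.827).

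Rian, the host of small nucleolar RNAs and of microRNAs such as miR-370-3p above, was the steadiest member, with a pooled SD within time points of 0.299 on the log2(CPM + 1) scale. The median over all genes tested, of every level of counts, was 0.719. Cdkn1c (0.339), Peg3 (0.361) and Meg3 (0.418) also lay below it, and Igf2, Plagl1, H19, Mirg and Grb10 lay above it. It had 593, 530 and 377 counts at P0, 379, 1100 and 904 at P4, and 565, 561 and 440 at P8. It had 600, 579 and 536 counts at P14 and 324, 397 and 411 at P21. The time points overlapped, with means between 86.02 and 130.1 CPM, and neither the trend (slope -0.01, adjusted p = 0.419) nor the test for any pattern (adjusted p = 0.477) passed.

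Rian and Meg3 nevertheless did not keep one proportion. In order of age, Rian RPKM was 13.64 ± 2.691%, 33.62 ± 2.781%, 16.64 ± 3.152%, 25.32 ± 4.817% and 8.315 ± 2.489% of Meg3 RPKM (SD, n = 3 each). The 3 P4 samples (30.42 to 35.42%) were above all 12 others, and the highest P21 sample (11.16%) was above the lowest P0 sample (10.79%). A permutation test of the F statistic of the log2 ratio over the 5 time points gave F = 22.1 and p = 4e-05 (100000 permutations, one-sided in F). This comparison was chosen after the values had been seen. Within time points the deviations of both genes from their means went together (r = 0.713 over 15 samples, which share library and depth). That was the highest r of deviations among the 36 pairs of tested members, which had a median of -0.00445 and a lowest value of -0.568.

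**Figure D4:**
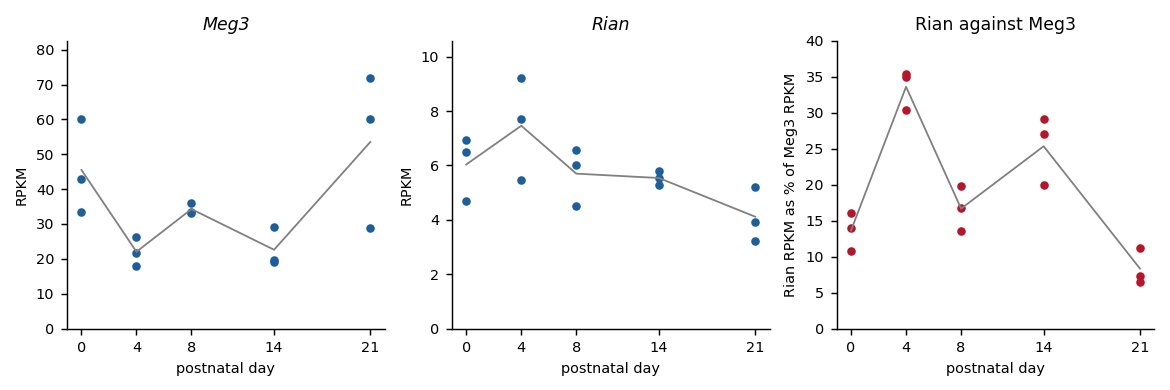
RPKM of Meg3 and of Rian, and Rian RPKM as a percentage of Meg3 RPKM, against postnatal day; points are samples and lines join the means of 3. The mean of Meg3 is lowest at P4 and P14 while Rian stays between 3.22 and 9.21 RPKM, and the mean percentage is highest at P4 (33.62%) and lowest at P21 (8.315%).

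Mirg, the host of 26 of the mature microRNAs, was found at low and scattered counts. The P0 samples had 105, 0 and 0 counts, the P4 samples 15, 60 and 8, and the P8 samples 1, 36 and 19, followed by 15, 24 and 9 for P14 and 20, 56 and 17 for P21. No time point stood apart, and the slope of 0.00 had an SE of 0.06 (adjusted p = 0.974). Its sign turned under several settings.

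Dlk1 encodes a membrane protein related to Notch ligands that acts as a growth and differentiation factor. It had 9 counts in P0 replicate 2 and none in the other 14 samples. At totals of 3409371 to 7814951 counts, a gene with no count may still have been present at up to 3 counts. At this depth a course of Dlk1 was not detectable. Of the 15 genes of the Notch pathway, all measured, 6 fell and 1 rose, beside 14.1% and 12.1% of all genes tested. Dlk2, the relative of Dlk1, went from a mean of 16.54 CPM at P0 to no count in any P14 or P21 sample (slope -0.54, adjusted p = 7.63e-05). The Notch target Hes5 (slope -0.35, adjusted p = 0.0207) and the receptor Notch1 (slope -0.17, adjusted p = 2.46e-05) also fell. The fall of Hes5 was not steady, with means of 7.782, 14.19, 20.2, 1.264 and 0 CPM in order of age. Dner, a Notch ligand of PCs, rose from 485.3 to 2638 CPM (slope 0.11, adjusted p = 8.35e-07). The list's median slope was -0.13 against -0.01 over all genes tested.

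Igf2 encodes insulin-like growth factor 2, the paternally expressed fetal growth factor. It had 81, 172 and 91 counts at P0, 431, 53 and 41 at P4, and 41, 7 and 113 at P8. It had 53, 25 and 11 counts at P14 and 33, 17 and 59 at P21. P4 replicate 1, with 106 CPM, stood above all other samples (1.34 to 34.1 CPM), and the time points overlapped.

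The slope of Igf2 was -0.11 log2 units per day (SE 0.05), which missed the threshold in edgeR (adjusted p = 0.0921) and passed it in DESeq2 (adjusted p = 0.0479). When single samples were left out, the slope was between -0.13 and -0.07 and did not pass. The sample with the highest Igf2 was also the one with the highest sum of fibroblast and pericyte markers (299 CPM), and P8 replicate 3, the highest Igf2 sample of its time point (20.4 CPM), had the next highest sum (93.1 CPM). Ogn, a matrix proteoglycan gene of meningeal fibroblasts, was counted in P4 replicate 1 alone (64.5 CPM), and Lum was at 0 in 14 samples. At P0 Igf2 was at 15.6 to 34.1 CPM with sums of 17.3 to 34.9 CPM. The sums were higher at P14 (57.4 to 78.96 CPM) and at P21 (48.07 to 63.54 CPM). Igf2 had means of 5.552 and 8.022 CPM at these ages, and each of their samples was below all P0 samples. Across the ages Igf2 therefore did not follow the sums. The part of such cells in the Igf2 values was not tested.

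**Figure D5:**
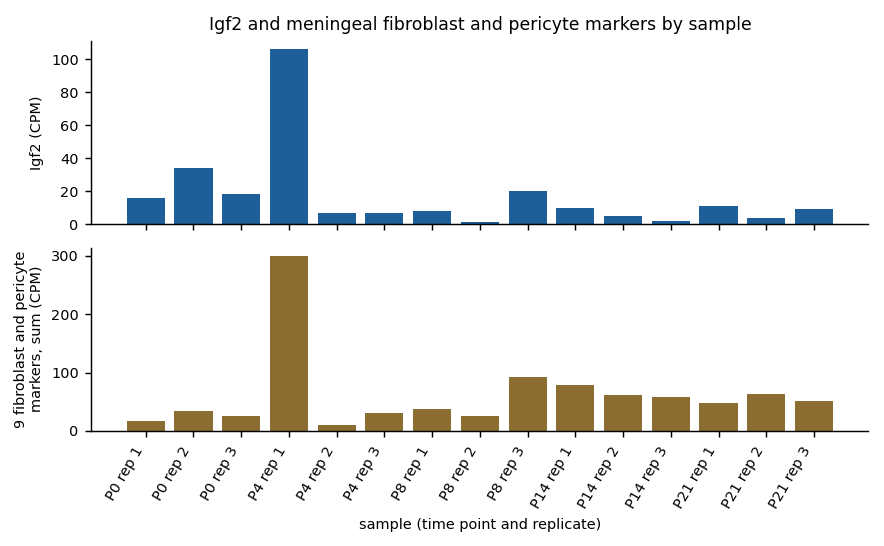
Igf2 (upper bars) and the sum of 9 markers of meningeal fibroblasts and pericytes (lower bars), both in CPM, for each of the 15 samples. P4 replicate 1 is the highest sample in both panels, at 106 and 299 CPM.

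Of the 15 measured genes of the insulin-like growth factor pathway, 7 fell and 3 rose, beside 14.1% and 12.1% of all genes tested. The list's median slope was -0.07 against -0.01 over all genes tested. The ligand Igf1 had means of 351.6 CPM at P0, 861.1 CPM at P4 and 107.6 CPM at P21 (slope -0.13, adjusted p = 0.000968), and those of Igf2 at the same ages were 22.72, 39.87 and 8.022 CPM. The P4 mean of Igf2 rests on P4 replicate 1, since the other P4 samples were at 6.86 and 7.02 CPM, below all P0 samples. All 3 genes of the RNA-binding proteins that bind Igf2 mRNA fell. Igf2bp1 went from 50.61 CPM at P0 to no count at P21 (slope -0.47, adjusted p = 0.000238), Igf2bp2 from 52.43 to 0.9791 CPM (slope -0.30, adjusted p = 0.00142) and Igf2bp3 from 3.803 to 0.05338 CPM (slope -0.29, adjusted p = 0.0243).

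The binding proteins, which hold the ligands outside the cell, divided. Igfbp2 (slope -0.20, adjusted p = 0.00135), Igfbp4 (-0.19, adjusted p = 0.00497) and Igfbp5 (-0.10, adjusted p = 0.0397) fell. Igfbp3 rose from 10.39 to 65.56 CPM (slope 0.15, adjusted p = 0.000651), and Igfbp6 rose from 0.06614 CPM at P0 to 150.2 CPM at P14 and was at 61.63 CPM at P21 (slope 0.37, adjusted p = 0.00266). The adaptor Irs2 also rose (slope 0.06, adjusted p = 0.0447), close to the threshold. With a sample left out, 2 to 3 genes of the list rose. The receptors Igf1r, Igf2r and Insr had slopes of -0.03, 0.00 and -0.03 and did not pass. Without the P0 time point 2 genes of the list fell, and with log2(day + 1) in place of the day 4 did.

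H19, the maternally expressed non-coding RNA next to Igf2, had 0, 140 and 34 counts at P0 and 24, 87 and 12 at P4. It had 0, 22 and 0 at P8, 3, 0 and 0 at P14, and 0, 0 and 19 at P21. Of the 6 samples of P0 and P4, 5 had counts, and of the 9 later samples 3 did. The slope of -0.18 (SE 0.08) did not pass (adjusted p = 0.126), and it passed without P21 replicate 3 (slope -0.43, adjusted p = 0.0107). H19 and Igf2 did not share their peaks: H19 was highest in P0 replicate 2 (27.8 CPM) and stood at 5.89 CPM in P4 replicate 1.

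Grb10 encodes an adaptor that binds the insulin and insulin-like growth factor receptors and dampens their signal. It is paternally expressed in neurons and maternally in most other tissues. It had 94, 141 and 143 counts at P0, 143, 19 and 117 at P4, and 0, 16 and 2 at P8. It had 38, 62 and 32 counts at P14 and 0, 95 and 14 at P21. The samples were at 18.1 to 29.0 CPM at P0, 2.46 to 35.1 CPM at P4 and 0 to 3.05 CPM at P8. They were at 6.14 to 11.9 CPM at P14 and 0 to 20.1 CPM at P21. The test for any pattern did not pass (adjusted p = 0.230). The step from P4 to P8, a log2 change of -4.04 (SE 1.5), did not pass (adjusted p = 0.276), nor did the trend (slope -0.08, adjusted p = 0.332).

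Plagl1 encodes a paternally expressed zinc finger factor that arrests the cell cycle. It had 47, 164 and 81 counts at P0, 28, 335 and 184 at P4, and 116, 120 and 275 at P8. It had 373, 177 and 178 counts at P14 and 136, 137 and 291 at P21. The ages overlapped, with means of 19.33 CPM at P0 and 40.34 CPM at P21 and a slope of 0.05 (SE 0.03, adjusted p = 0.153). Per length Plagl1 moved from the eighth place among members at P0 (2.769 RPKM) to the third at P21 (4.523 RPKM), while neither test called a change of Plagl1 itself.

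The members did not move as one. Over the 36 pairs of tested members, Pearson's r of log2 CPM over the 15 samples went from -0.908 for Peg3 with Cdkn1c to 0.603 for H19 with Cdkn1c, with a median of -0.0991. The neighbours H19 and Igf2 had r = 0.347, and Meg3 and Rian had r = -0.189. Of 10 measured neighbours in 4 of these regions, 1 fell and 1 rose, near the 14.1% and 12.1% of all genes tested. Cobl, an actin nucleator gene beside Grb10, fell: it was at 38.8, 15.1 and 6.08 CPM in the P0 samples and had a mean of 0.8007 CPM at P21 (slope -0.23, adjusted p = 0.0366). Cd81, a tetraspanin gene near Cdkn1c, rose, with means of 572.5 CPM at P0 and 1433 CPM at P21 (slope 0.06, adjusted p = 0.00208). Neither passed without the P0 time point, and no neighbour fell without P0 replicate 1 or 2, P14 replicate 3, or P21 replicate 1 or 2.

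Of 28 other imprinted genes that passed the filter, 6 fell and 3 rose. Nnat, a small membrane protein of immature neurons, fell from 964.3 to 7.4 CPM (slope -0.34, adjusted p = 2.42e-09), Peg12 fell from 33.67 CPM to no count at P14 and P21 (slope -0.60, adjusted p = 4.02e-06), and Mest fell from 41.79 to 2.042 CPM (slope -0.20, adjusted p = 0.00031). Rasgrf1, a Ras exchange factor of neurons, rose from 0.06756 to 26.43 CPM (slope 0.24, adjusted p = 0.0113), Nap1l5 from 22.69 to 297 CPM (slope 0.17, adjusted p = 6.84e-08) and Zrsr1 from 19.24 to 72.28 CPM (slope 0.10, adjusted p = 0.000227). Thus 9 of these 28 genes and 2 of the 9 members were called, beside 26.2% of all genes tested.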

How the data were processed

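RNA of laser-captured PCs was sequenced by the authors from 15 samples, 3 per time point (P0, P4, P8, P14 and P21). Libraries were made with a SMARTer kit, which does not mark strand, so reads of a gene and of an antisense partner cannot be told apart. The authors trimmed reads (cutadapt 1.2.1), aligned them to GRCm38/mm10 (GSNAP), kept uniquely mapping reads and counted those wholly inside features (HTSeq 0.5.3p9, intersection-strict). The deposited values are these counts per Ensembl gene, not normalized. The annotation release is not given in the sources used here. HTSeq's tallies of reads outside genes were left out of library sizes and tests.

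Names, positions and exon lengths came from GENCODE M21 (36723 of 38561 IDs matched). Counts were tested with the edgeR 4.0.16 quasi-likelihood F test in R 4.3.3 (TMM scaling, filterByExpr by time point, 14293 genes, Benjamini-Hochberg adjustment at 0.05, all 15 samples in each fit) on postnatal day as a number, on the time point as a factor, and on each step between neighbouring time points. CPM uses TMM effective library sizes. RPKM uses summed exon length and total counts on genes. Totals of 3409371 to 7814951 counts per sample set the precision, and the floor of 3 counts covers counting error only. The biological coefficient of variation was 0.757. Alternatives were DESeq2 1.42.0, limma-voom (limma 3.58.1), DESeq2 size factors, no filter, log2(day + 1), no P0, a replicate block and leaving out each sample. The edgeR tests were also run on simulated counts with known slopes. That run used a single dispersion for all genes, a simpler setting than these data, so it does not measure their accuracy here.

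The members and gene lists were chosen with earlier results of these data known. The genes named are all members, every called gene of the insulin-like growth factor and neighbour lists, up to 3 called genes each way with the largest slope in the other lists, and the 3 tested genes most correlated with a member, given for Cdkn1c, Peg3 and Meg3. Cdkn1a, Usp29, the receptors and single markers were named after their values were seen. Genes overlapping Meg3, Rian, Mirg, H19 and Igf2 (mostly small RNA genes) held 0 to 7 counts in all samples together, which leaves aside those without a row in the files. Reads that fit several genes were tallied as ambiguous (1.157 to 1.571% of tallies) and counted for none, so these low counts do not measure the overlap.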

Additional observations from a re-analysis of the deposited data

How the results depend on the processing

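The trends of Cdkn1c and Peg3 kept their direction and their call under each alternative and with each sample left out. The call of Meg3 for any pattern was kept with DESeq2, limma-voom, DESeq2 size factors, no filter, the replicate block and each sample left out, and was not run without P0. With no filter 2 members fell (Dlk1 was added, slope -0.25, adjusted p = 0.0259, from 9 counts in 1 sample), with DESeq2 also 2 (Igf2 was added), and without the P0 time point 2 rose (Meg3 was added). With each sample left out, 1 to 2 members fell.

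DESeq2 called more in every step: 773 genes from P0 to P4 (edgeR 281), 496 from P4 to P8 (162), 844 from P8 to P14 (382) and 175 from P14 to P21 (47), with 1, 2, 1 and 2 members. With no filter 2 members passed from P14 to P21 (Meg3 and Peg3). Leaving out a sample gave 186 to 302, 74 to 201, 163 to 441 and 24 to 68 genes and 0 to 1, 1 to 1, 0 to 1 and 0 to 1 members. The causes were not tested.

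Of the neighbours, 2 fell with DESeq2, 0 without P0 and 0 with the replicate block, 0 to 2 fell with a sample left out, and 0 rose without P0. Of the insulin-like growth factor list, 4 fell with log2(day + 1), 2 without P0 and 5 to 7 with a sample left out. In that list 2 rose with no filter, limma-voom, log2(day + 1) or no P0, and 2 to 3 with a sample left out. Of the G1 list, 2 rose with no filter and 0 without P0. In the same list 4 fell with log2(day + 1), without P0 or with the replicate block, and 4 to 6 with a sample left out. The slope of Mirg turned to -0.074 with log2(day + 1) and ran from -0.030 to 0.093 with a sample left out. The change of Peg3 from P0 to P4 (-0.01) was 0.039 with the replicate block and -0.34 to 0.34 with a sample left out. The Rian to Meg3 ratio kept F between 16.3 and 31.5.

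Replicate numbers did not pair the samples: deviations from the time point means had a mean r of -0.00329 for the same number and 0.00165 for different numbers, and the block changed no member's trend call. Low counts limit H19, Mirg, Grb10 and Dlk1, whose samples hold 0 to 143 counts.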
